A study of Mus musculus with 6 samples.

Results

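RNA of 9 Notch pathway genes was followed in sorted ILCPs, the precursors in mouse bone marrow from which innate lymphoid cells arise. The genes were chosen by symbol: the receptors Notch1, Notch2 and Notch3, the protease gene Adam10, the nuclear partners Rbpj and Maml1, and the target genes Hes1, Dtx1 and Nrarp. All 9 were found among the 16383 genes analysed. The cells came from mice carrying both Rag1-cre and the ET-2 transgene, on the C57BL/6 strain, and were sorted as Lin- Flt3- IL7Rα+ α4β7+ CD90+ CD25- cells. GFP marked ILCPs that expressed ET-2, and 3 GFP+ libraries were set against 3 GFP− libraries, each replicate being a pool of 4 to 5 mice that gave both fractions. Replicates 1, 2 and 3 are therefore also called pools, and values are given in that order. The design had no mice that carried Rag1-cre alone, so both fractions share the Cre and the transgene in their genome, and earlier Rag1-driven Cre activity and ET-2 cannot be told apart. ET-2 is known as an engineered protein in which parts of E47 that activate transcription, E47 being an E protein, are joined to the part of TAL1 that binds DNA.

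Notch receptors are transmembrane proteins that are activated by ligands of the Delta and Jagged families on a neighbouring cell. The protease ADAM10 cuts the bound receptor outside the membrane, γ-secretase then cuts it inside the membrane, and the freed intracellular part joins RBPJ and a Mastermind protein such as MAML1 on DNA. Hes1, Dtx1 and Nrarp are textbook targets of that complex in lymphocytes. Notch signals are known to drive T cell commitment and to take part in the development of innate lymphoid cells, and E proteins are known to raise Notch1 in early T cell progenitors.

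Libraries held 10432461 to 15042354 estimated counts in the GFP+ group and 11680512 to 19038554 in the GFP− group, so that 1 count stood for 0.0459 to 0.118 CPM (counts scaled to the library size by TMM). GFP+ replicate 3 had the fewest genes above 0, 11278 against 12601 to 15030 in the others. All 10 ILCP markers were analysed. Their summed level was 6940 to 15311 CPM in GFP+ and 7246 to 13697 CPM in GFP− libraries. The sum hides differences in GFP+ replicate 3, where Pdcd1 was at 0. Tox, Tcf7 and Itga4 also had their lowest values there, at 133, 339 and 1778 CPM. Itgb7, Thy1, Id2, Gata3 and Nfil3 had their highest values in that library. Markers of other cell types were also counted, and what part such cells had in the Notch gene values was not tested. The 8 T cell markers summed to 463, 166 and 139 CPM in the GFP+ fractions of replicates 1, 2 and 3 and to 347, 283 and 180 CPM in the GFP− fractions, with Cd3e, Cd3g and Trac at 0 in GFP+ replicate 3. The 6 myeloid markers analysed, of 8 listed, summed to 907, 25.3 and 1605 CPM in the GFP+ fractions and to 374, 168 and 278 CPM in the GFP− fractions. Elane, Itgam and S100a8 were at 0 in GFP+ replicate 2. Itgam was also at 0 in both fractions of replicate 3, Elane in GFP− replicate 2 and S100a8 in GFP+ replicate 1. The 5 mast cell or basophil markers summed to 368, 1203 and 1072 CPM in the GFP+ fractions and to 193, 189 and 918 CPM in the GFP− fractions, higher in GFP+ in each of the 3 pools. Most of that sum was Cpa3, at 328, 1199 and 973 CPM against 149, 161 and 497 CPM. Of the 5 markers only Cpa3 was higher in GFP+ in each of the 3 pools. Fcer1a, at 0 in all 3 GFP+ libraries, was lower in GFP+ in each pool. Mcpt8 was too, at 14.4, 0 and 66.5 CPM against 17.4, 20.7 and 341 CPM. Ms4a2 and Prss34 differed in direction between pools. Sums ranged from 9.04 to 99.7 CPM for 7 B cell markers, from 0 to 71.7 CPM for the 5 of 6 erythroid markers analysed, and from 147 to 402 CPM for the 6 of 7 endothelial or stromal markers analysed, of which Pecam1 made up nearly all. As these are bulk samples, fewer cells of a type and less RNA per cell cannot be told apart.

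The promoters of a receptor gene, of the gene of the DNA-binding partner and of a target gene are shown, 1 for each level of the pathway, since both RBPJ and ET-2 bind DNA. Each runs from 250 bases before to 50 bases after the annotated start and is taken from RefSeq on build GRCm38.p6, and 8 of the 9 genes matched an entry, Hes1 being the exception. The Notch1 and Rbpj starts lie inside the genes as GENCODE vM21 places them. There Notch1 begins at 26516663 on the minus strand and Rbpj at 53466152 on the plus strand. These upstream ends are not covered by the windows. Capitals mark TGGGAA, the core letters of the RBPJ motif, or its reverse complement TTCCCA.
Notch1 promoter, chr2:26503773-26504072, minus strand: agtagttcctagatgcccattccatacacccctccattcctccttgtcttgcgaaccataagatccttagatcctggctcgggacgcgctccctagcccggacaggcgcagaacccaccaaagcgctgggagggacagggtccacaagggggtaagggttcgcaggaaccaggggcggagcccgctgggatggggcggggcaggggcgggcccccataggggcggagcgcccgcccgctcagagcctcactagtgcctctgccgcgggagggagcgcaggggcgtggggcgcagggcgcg
Rbpj promoter, chr5:53590096-53590395, plus strand: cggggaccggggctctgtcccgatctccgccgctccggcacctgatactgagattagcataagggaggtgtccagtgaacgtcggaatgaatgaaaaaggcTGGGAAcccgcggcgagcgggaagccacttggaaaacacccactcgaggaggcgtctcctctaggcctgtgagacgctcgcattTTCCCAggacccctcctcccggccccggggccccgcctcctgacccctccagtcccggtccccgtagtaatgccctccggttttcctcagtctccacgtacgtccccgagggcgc
Nrarp promoter, chr2:25180508-25180807, plus strand: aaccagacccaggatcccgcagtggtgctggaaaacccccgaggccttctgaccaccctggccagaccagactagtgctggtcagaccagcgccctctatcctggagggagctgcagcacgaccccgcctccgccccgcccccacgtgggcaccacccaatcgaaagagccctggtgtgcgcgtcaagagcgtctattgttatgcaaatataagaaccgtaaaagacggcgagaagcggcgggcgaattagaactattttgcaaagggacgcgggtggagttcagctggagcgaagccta
The Rbpj promoter printed held 2 matches to TGGGAA, at bases −149 to −144 and, on the opposite strand, at −65 to −60 from the start. A second Rbpj start, 140 bases downstream, has its own entry, which holds the latter match. None of the entries of the other 7 genes held it, while 25.6% of all 32851 promoter entries did. Of the E boxes, the sites of E proteins and TAL1, only the forms CAGCTG and CACCTG were searched, on both strands and without overlap between them. Other forms of the E box were not searched. Nrarp held 1 CAGCTG, at bases 33 to 38 after the start, and the printed Rbpj window held 1 CACCTG. The windows of Notch1, Notch2, Notch3, Adam10, Maml1 and Dtx1 held neither. Of all entries, 16.3% held CAGCTG and 20.2% held CACCTG. These matches describe letters in a short window and do not show binding.

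None of the 9 genes passed the test of GFP+ against GFP− ILCPs across all genes. edgeR's quasi-likelihood test, adjusted over 12199 genes by the Benjamini-Hochberg method, called 0 of the 7 Notch genes it tested, where it called 0% of all genes. Notch3 and Nrarp were left untested by the filter on low counts. At an unadjusted p under 0.05 there were also 0 of 7, against 3.23% of all genes. DESeq2, run on all genes, called 0 of the 8 to which it gave an adjusted p, where it called 0.411% of genes, and 0 of 8 with the replicate block, where it called 1.22%. The authors' deposited table lists 0 of 8 with an adjusted p under 0.05, against 0.703% of genes. Of the 7 tested, 4 were higher and 3 lower in GFP+ ILCPs. Their median log2 fold change was 0.47, against −0.028 over all genes tested. The 95% interval given with each gene shows which differences these libraries leave possible.

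**Figure D1:**
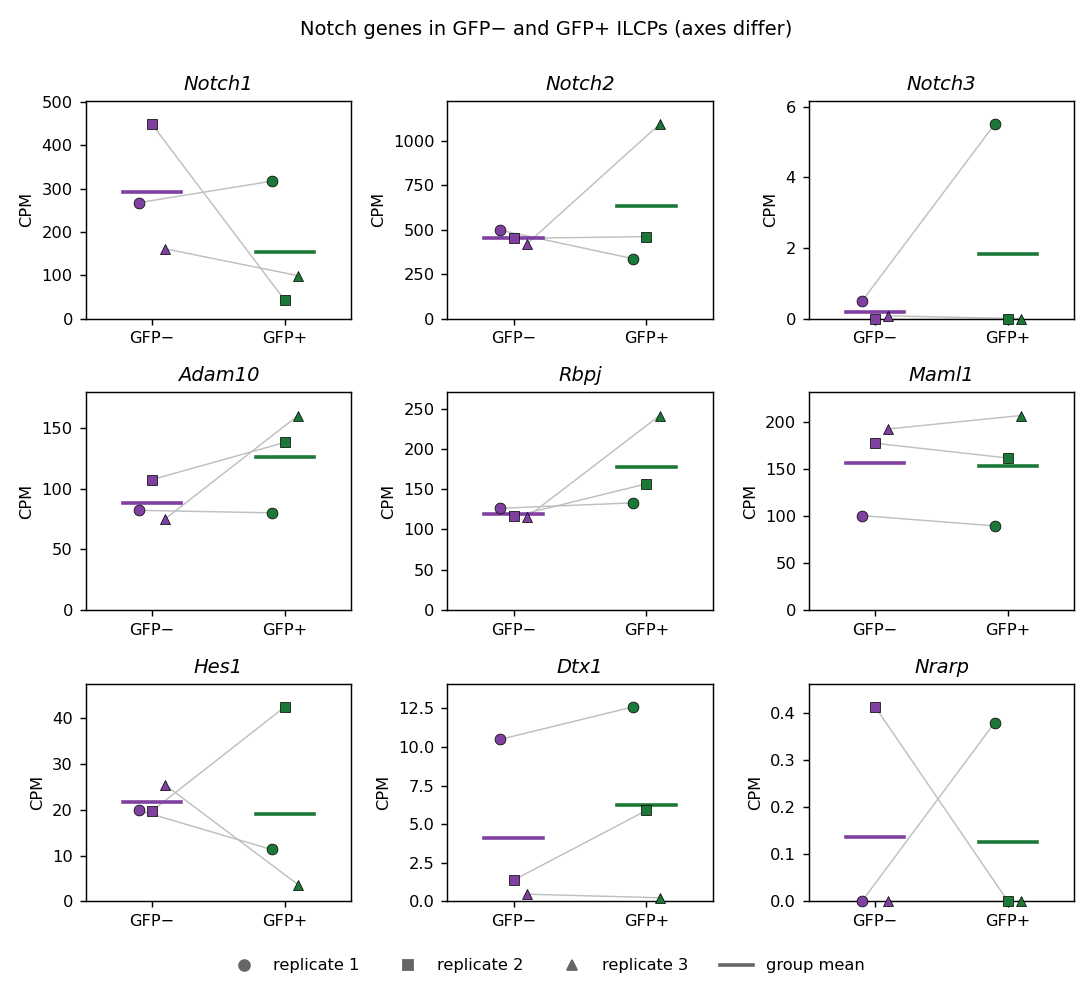
CPM of the 9 Notch genes (vertical axes, each starting at 0 and differing between panels) in GFP− (purple) and GFP+ (green) ILCPs. Points are libraries, with 1 symbol for each replicate, grey lines join fractions of the same pool of mice, and bars are group means; only Rbpj has GFP+ values, 133 to 242 CPM, that all lie above its GFP− values, 115 to 126 CPM.

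Among the receptors, Notch1 spread widely and Notch2 was steady but for 1 library. Notch1, the receptor needed for T cell commitment, measured 317, 42.4 and 99.2 CPM in the GFP+ fractions of pools 1, 2 and 3, beside 268, 449 and 161 CPM in their GFP− fractions. GFP+ replicate 2 was the lowest library and its GFP− partner the highest, and the groups overlapped because GFP+ replicate 1 was above 2 of the 3 GFP− libraries. Its mean was 153 ± 145 CPM in the GFP+ group against 293 ± 146 CPM in the GFP− group (SD, n = 3 each). The log2 fold change was −0.93 ± 0.73 (SE; edgeR adjusted p = 0.998), a ratio of 0.524 with a 95% interval of 0.169 to 1.62. Within pools the log2 difference was 0.24, −3.40 and −0.70 in replicates 1, 2 and 3, so that 2 of 3 pairs were lower in GFP+. The fold change depended on single libraries: it was −1.99 without GFP+ replicate 1, −0.50 without GFP+ replicate 2, −0.46 without GFP− replicate 2 and −0.05 when both fractions of replicate 2 were left out.

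Notch2, a receptor with roles in B cells and myeloid cells, measured 337, 461 and 1094 CPM in the GFP+ fractions of pools 1, 2 and 3, beside 497, 451 and 421 CPM in their GFP− fractions. The GFP− libraries lay close together, with a coefficient of variation of 8.43% against 64.3% in GFP+, where replicate 3 was far above the rest. Means were 631 ± 406 and 456 ± 38.5 CPM (SD, n = 3 each). The log2 fold change was 0.47 ± 0.55 (SE; edgeR adjusted p = 0.998), a ratio of 1.39 with a 95% interval of 0.593 to 3.25. It became −0.19 without GFP+ replicate 3. That library also had the highest sum of myeloid markers, 1605 CPM. GFP+ replicate 1 had the next highest sum, 907 CPM, and the lowest Notch2, 337 CPM. The part of such cells in the Notch2 values was not tested.

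Notch3, a receptor that is itself induced by Notch signals in T cell progenitors, had 87, 0 and 0 counts in GFP+ replicates 1, 2 and 3 and 7, 0 and 1 counts in GFP− replicates. Nearly all of its counts came from GFP+ replicate 1, the library with the highest sum of T cell markers, 463 CPM. Of these markers, Cd3e, Cd3g, Trac and Cd8a were highest in that library, while Cd3d, Lck, Lat and Cd4 were highest in GFP− libraries. The part of T cells in that value was not tested. The authors' deposited table lists for Notch3 a change of 3.31 ± 2.88 on the log2 scale (SE; adjusted p = 0.883 by DESeq2). A count of 0 in GFP+ replicates 2 and 3 allows up to 0.249 and 0.354 CPM, which is the level of 3 counts.

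Since Notch1 and Notch2 were counted in the same libraries, their ratio does not depend on how libraries were scaled. Per kb of exon, Notch1 made up 51.0%, 9.23% and 9.12% of the summed level of Notch1 and Notch2 in GFP+ replicates 1, 2 and 3. In GFP− replicates its share was 37.4%, 52.4% and 29.8%. GFP+ replicates 2 and 3 were thus below every GFP− library, while GFP+ replicate 1 was above 2 of them. The log2 ratio of Notch1 to Notch2 was −2.19 ± 1.94 in GFP+ and −0.61 ± 0.70 in GFP− ILCPs (SD, n = 3 each). The difference was −1.57, and within pools it was 0.80, −3.44 and −2.08 in replicates 1, 2 and 3. This ratio was chosen after the values of its genes had been seen, so it is given as a description with no test. Leaving out single libraries gave differences between −2.69 (GFP+ replicate 1 left out) and −1.01 (GFP+ replicate 3 left out), and leaving out both fractions of replicate 1, 2 or 3 gave −2.76, −0.64 and −1.32.

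**Figure D2:**
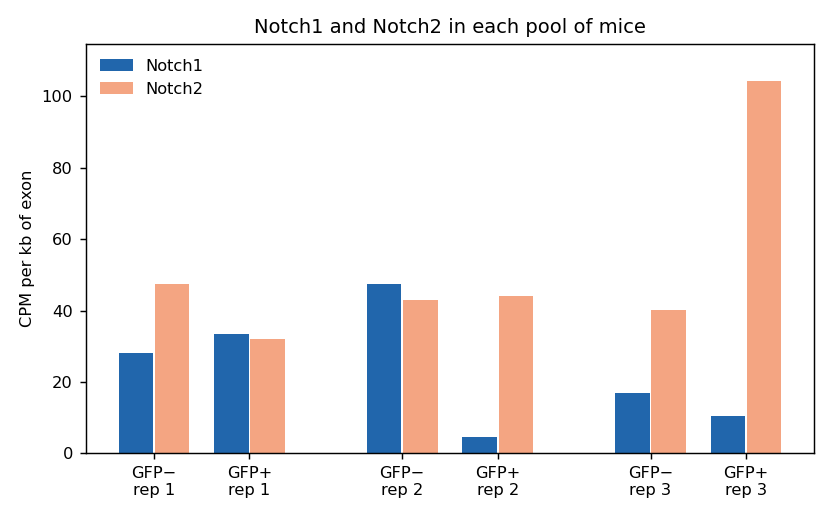
Notch1 (blue) and Notch2 (orange) in CPM per kb of exon (vertical axis) in each library, with the GFP− and GFP+ fractions of 1 pool side by side. Notch1 is at 4.46 in GFP+ replicate 2 beside 47.4 in the GFP− fraction of that pool, and Notch2 is at 104 in GFP+ replicate 3.

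Adam10, Rbpj and Maml1, which act on every Notch receptor, were the steadiest of the 7 genes tested. Their log2 CPM ranged over 1.09, 1.07 and 1.21 units across the 6 libraries, against a median of 3.13 for all genes tested and 3.40 for Notch1. Adam10 measured 80.1, 138 and 160 CPM in the GFP+ fractions of pools 1, 2 and 3, beside 82.1, 107 and 75.2 CPM in their GFP− fractions. GFP+ replicates 2 and 3 were above all GFP− libraries and replicate 1 lay among them. The log2 fold change of Adam10 was 0.52 ± 0.51 (SE; edgeR adjusted p = 0.998), a ratio of 1.43 with a 95% interval of 0.656 to 3.14, and was 0.20 without replicate 3 of both groups.

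Rbpj, which encodes the DNA-binding factor of the pathway, measured 133, 157 and 242 CPM in the GFP+ fractions of pools 1, 2 and 3, beside 126, 116 and 115 CPM in their GFP− fractions. It was the 1 gene of the 7 tested whose groups did not overlap, a pattern seen in 9.21% of all genes tested, and it was higher in GFP+ in 3 of 3 pairs, as were 8.46% of all genes. Means were 177 ± 57.03 and 119 ± 6.14 CPM (SD, n = 3 each). The GFP− libraries had a coefficient of variation of 5.15%, the GFP+ libraries one of 32.2%. The log2 fold change was 0.57 ± 0.48 (SE; edgeR adjusted p = 0.998), a ratio of 1.49 with a 95% interval of 0.715 to 3.10. It was 0.28 without GFP+ replicate 3, the library with the highest value. Rbpj has processed pseudogenes on chromosomes 4 and 6 (Rbpj-ps1 and Rbpj-ps3 in GENCODE vM21), so its counts could be split or shared. Neither copy is among the genes analysed, so no counts of theirs can be set beside those of Rbpj.

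Maml1, a coactivator that bridges the Notch complex to histone acetyltransferases, measured 89.3, 161 and 206 CPM in the GFP+ fractions of pools 1, 2 and 3, beside 100.2, 177 and 192 CPM in their GFP− fractions. Both fractions of a pool had nearly the same value, low in replicate 1 and higher in replicates 2 and 3. The within-pool log2 differences of Maml1 were −0.17, −0.13 and 0.10. Its log2 fold change was −0.03 ± 0.52 (SE; edgeR adjusted p = 0.999), a ratio of 0.977 with a 95% interval of 0.435 to 2.19. The sign of this small value changed with DESeq2 and with DESeq2's size factors, at 0.04 in each.

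Of the target genes, Hes1 was steady in GFP− ILCPs and scattered in GFP+ ILCPs. Hes1, a repressor of transcription, measured 11.3, 42.4 and 3.65 CPM in the GFP+ fractions of pools 1, 2 and 3, beside 19.9, 19.7 and 25.4 CPM in their GFP− fractions. GFP+ replicate 2 was the highest library, although its Notch1 was the lowest, and GFP+ replicates 1 and 3 were the lowest. Means were 19.1 ± 20.5 and 21.7 ± 3.23 CPM (SD, n = 3 each). The log2 fold change of Hes1 was −0.18 ± 0.96 (SE; edgeR adjusted p = 0.998), a ratio of 0.884 with a 95% interval of 0.202 to 3.88. It was −1.53 when GFP+ replicate 2 was left out and 0.31 when GFP+ replicate 3 was, so both its direction and its size rested on single libraries.

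Dtx1, an E3 ubiquitin ligase of the Deltex family, had 199, 71 and 2 counts in GFP+ replicates 1, 2 and 3 and 150, 30 and 6 counts in GFP− replicates. These were 12.6, 5.89 and 0.236 CPM against 10.5, 1.38 and 0.466 CPM. Both fractions of replicate 1 were high and both of replicate 3 were near 0, so pools 1 and 3 differed more than their fractions did. In replicate 2 the fractions themselves differed by 1.99 on the log2 scale. The log2 fold change of Dtx1 was 0.60 ± 1.67 (SE; edgeR adjusted p = 0.998), a ratio of 1.52 with a 95% interval of 0.116 to 19.97, and it was −0.38 without GFP+ replicate 1. The sum of T cell markers was likewise highest in both fractions of replicate 1, at 463 and 347 CPM. Between fractions this sum had the same order as Dtx1 in replicates 1 and 3, but in replicate 3 Dtx1 had only 2 and 6 counts. Such low counts do not settle its order there. In replicate 2 the order was reversed, with a sum of 166 CPM in GFP+ and 283 CPM in GFP−. Single markers went against the order of the sum: Lck, Lat and Cd4 in replicate 1, Cd3e and Cd3d in replicate 2, and Lat in replicate 3. The part of T cells in the Dtx1 values was not tested.

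Nrarp, a small ankyrin-repeat protein that limits Notch signalling, had 6 counts in GFP+ replicate 1, 9 counts in GFP− replicate 2 and 0 in the other libraries. It did not exceed 0.413 CPM, and at this depth no difference was detectable. The authors' deposited table lists for Nrarp a change of −0.10 ± 3.83 on the log2 scale (SE) with no adjusted p.

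**Figure D3:**
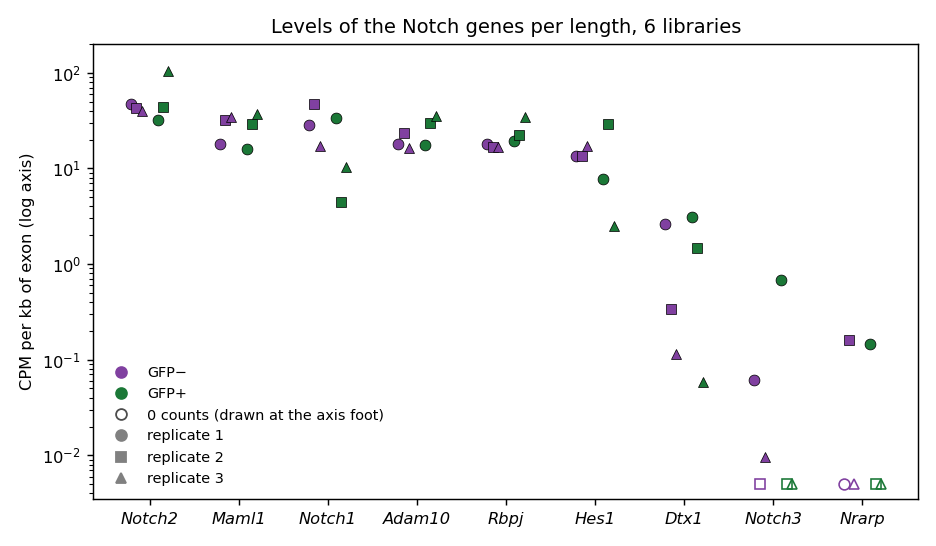
Level of each Notch gene in CPM per kb of exon (vertical log axis) in GFP− (purple) and GFP+ (green) libraries, with genes ordered by their mean. Hollow symbols at the foot of the axis are libraries with 0 counts; Notch2 lies highest, with 32.1 to 104 CPM per kb, and Notch3 and Nrarp lie under 1.

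Per length, Notch2 had the highest level of the 9 genes, with a mean of 51.8 CPM per kb of exon over the 6 libraries and a range of 32.1 to 104. It was above Maml1, the next in order of the means at 27.9 CPM per kb, in 6 of 6 libraries. The following genes were close to each other: Maml1 was above Notch1 in 3 of 6 libraries, Notch1 above Adam10 in 4 of 6, Adam10 above Rbpj in 3 of 6, and Rbpj above Hes1 in 4 of 6. The mean level per kb was 23.5 for Notch1, 23.3 for Adam10, 21.3 for Rbpj and 13.9 for Hes1, so these neighbours did not separate beyond their spread over libraries. Dtx1 followed at a mean of 1.28 CPM per kb and was below Hes1 in 6 of 6 libraries. Notch3 and Nrarp, at 0.126 and 0.0512 CPM per kb, came last, and Dtx1 was above Notch3 in 6 of 6 libraries.

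The 9 genes lie on 7 chromosomes in GENCODE vM21 on GRCm38. Notch1 is on chromosome 2 at 26457903 to 26516663, minus strand, and Nrarp on the same chromosome at 25180758 to 25183339, plus strand. Notch2 is on chromosome 3 at 98013527 to 98150361, plus strand, and Notch3 on chromosome 17 at 32120820 to 32166852, minus strand. Adam10 is on chromosome 9 at 70678997 to 70780229, plus strand, Rbpj on chromosome 5 at 53466152 to 53657362, plus strand, and Maml1 on chromosome 11 at 50255634 to 50292311, minus strand. Dtx1 is on chromosome 5 at 120680202 to 120711927, minus strand, and Hes1 on chromosome 16 at 30064384 to 30067796, plus strand. Annotated genes on the opposite strand share exon bases with Notch1 (1068 with 0610009E02Rik and 414 with Gm13568), Notch3 (488 with Gm17276), Maml1 (135 with Gm26542) and Nrarp (2051 of 2582 with Gm38287). On the same strand, Notch2 shares 541 exon bases with Gm42820, whose reads could not be separated from those of Notch2 by strand. Whether the counting kept strand is not given in the sources used here, so reads of these partners cannot be told apart from those of the Notch genes. None of these partners is among the genes analysed.

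A list of 78 Notch pathway genes, the 9 included, was described in the same fit. Of these, 74 were analysed and 69 tested by edgeR, with 40 higher and 29 lower in GFP+ ILCPs, 58.0% higher against 49.02% of all genes tested. The median log2 fold change was 0.057, and 0 passed the test over all genes. Groups did not overlap for 8 of the 69, or 11.6%, against the 9.21% of all genes tested. At an unadjusted p under 0.05 there was 1 gene of the 69, a smaller share than the 3.23% of all genes tested, and DESeq2 called 0. The count is thus no result about the list. That gene was Kdm5a, a histone demethylase that takes part in RBPJ corepressor complexes. It measured 135, 433 and 437 CPM in the GFP+ fractions of pools 1, 2 and 3, beside 106, 122 and 171 CPM in their GFP− fractions, with a log2 fold change of 1.34 ± 0.57 (SE; edgeR adjusted p = 0.998). It was higher in 3 of 3 pairs, as were 8.46% of all genes tested, but GFP+ replicate 1 lay below GFP− replicate 3. Without single libraries or replicates its log2 fold change stayed between 1.05 and 1.77. As Kdm5a was picked by its p in these same libraries, these values lend it no separate support. Over settings with all libraries its unadjusted p lay between 0.0344 (edgeR, no filter on low counts) and 0.0855 (DESeq2 with the replicate block).

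The 4 ligand genes analysed did not exceed 44.8 CPM in any library. Dll1 measured 42.01, 38.1 and 0 CPM in the GFP+ fractions of pools 1, 2 and 3, beside 25.9, 23.1 and 44.8 CPM in their GFP− fractions, and Jag1 stood at 14.9, 40.5 and 0 CPM against 0.979, 11.0 and 2.64 CPM. Both ligand genes thus had 0 counts in GFP+ replicate 3 and were above 0 in every other library, and 0 counts there allow up to 0.354 CPM. Notch4, the remaining receptor and one known best from endothelium, reached 21.6 CPM in GFP+ replicate 2 and did not exceed 7.14 CPM in the other libraries. Its log2 fold change of 1.00 ± 1.90 (SE; edgeR adjusted p = 0.998) was −4.10 without replicate 2 of both groups. Of the genes that add sugars to the receptors, 4 of 5 were higher and 0 passed. Lfng, a Fringe enzyme that changes which ligands a receptor answers, stood at 53.1, 29.2 and 137 CPM against 30.6, 49.4 and 17.2 CPM, and Mfng, its relative, at 63.2, 37.1 and 80.7 CPM against 56.0, 90.9 and 61.03 CPM.

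Among 10 genes of receptor processing, 6 were higher and 4 lower, and 0 passed the test. Furin, the protease that cuts the receptor on its way to the surface, measured 206, 221 and 372 CPM in the GFP+ fractions of pools 1, 2 and 3, beside 203, 303 and 133 CPM in their GFP− fractions. Adam17, a relative of Adam10 that can also cut Notch1, stood at 161, 57.5 and 142 CPM against 120, 135 and 99.3 CPM. GFP+ replicate 2 was thus lowest for Adam17, as it was for Notch1, while its Adam10 of 138 CPM was above all GFP− libraries. All 13 tested genes of ubiquitin transfer and endocytosis missed the threshold, with 8 higher and 5 lower. Groups did not overlap for 4 of the 13, or 30.8%, against 9.21% of all genes tested. Of these, Neurl1b, Dtx3 and Dtx4 were lower in GFP+ and Nedd4 was higher. Nedd4, an E3 ubiquitin ligase known in Drosophila to act on Notch, stood at 684, 1065 and 1026 CPM against 392, 441 and 552 CPM, and its groups did not overlap. Its log2 fold change was 1.01 ± 0.48 (SE; unadjusted p = 0.0602 and adjusted p = 0.998 by edgeR), and 0.86 to 1.24 without single libraries or replicates. Aak1, a kinase of endocytosis, stood at 339, 763 and 272 CPM against 461, 501 and 366 CPM.

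In the nuclear complex 3 of 9 genes were higher and 6 lower, and 0 passed. Crebbp and Ep300, the acetyltransferases that MAML1 recruits, stood at 824, 1711 and 1441 CPM against 814, 1007 and 1573 CPM and at 715, 1066 and 533 CPM against 667, 833 and 851 CPM. The corepressor list had 9 of 14 genes higher and 0 past the test. Ncor1, which helps to hold RBPJ targets silent in the absence of Notch signals, had a log2 fold change of −0.06 ± 0.54 (SE; edgeR adjusted p = 0.999). Of 12 target genes tested, 7 were higher and 5 lower. Tcf7, which encodes TCF1 and is induced by Notch in T cell progenitors, stood at 1110, 3692 and 339 CPM against 1430, 2060 and 2172 CPM, high in GFP+ replicate 2 and low in replicate 3 as Hes1 was. Gata3 stood at 762, 290.2 and 936 CPM against 786, 916 and 328 CPM, which is the reverse order among the GFP+ libraries. Both are also regulators of ILC precursors themselves.

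**Figure D4:**
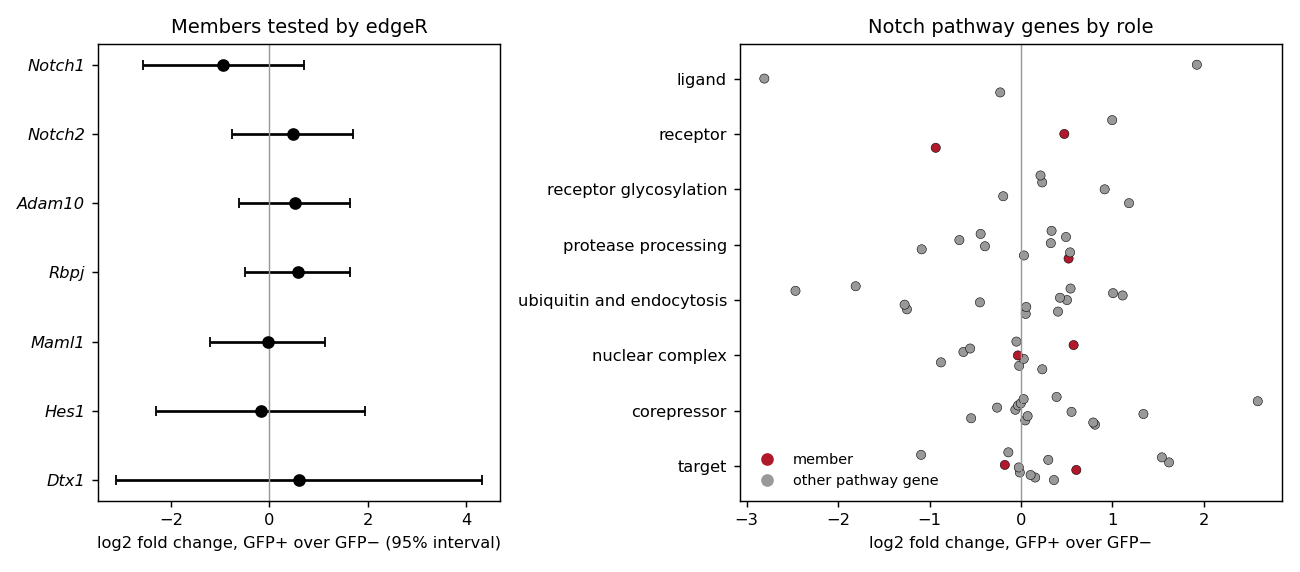
Left, log2 fold change (GFP+ over GFP−, horizontal axis) with its 95% interval for the 7 members that edgeR tested, all of which span 0. Right, log2 fold changes of the 69 pathway genes tested, by role, with members in red and other genes in grey; points lie on both sides of 0 in every role.

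The genes most like Notch1 across the 6 libraries, by Pearson's r of log2 CPM among 10704 genes with a mean of at least 20 counts, were Cabin1 (r = 0.998), Ccdc22 (r = 0.990) and H2-Q5 (r = 0.989). Those most like Hes1 were Bag1 (r = 0.996), Hivep3 (r = 0.992) and Gnptab (r = 0.992). With so few libraries many genes come close: 236 had an r over 0.9 with Notch1 and 507 with Hes1. The 6 points of each r come from 3 pools and share library depth. Gnptab, for example, measured 52.6, 574 and 10.3 CPM in the GFP+ fractions and 119, 107 and 236 CPM in the GFP− fractions, with the same high and low GFP+ libraries as Hes1. H2-Q5 belongs to a family of near-identical genes, so its counts are uncertain.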

How the data were processed

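RNA was measured in 3 GFP+ and 3 GFP− ILCP libraries. Per the labels' protocols, cDNA was amplified with the Trio RNA-seq kit, which suits little RNA, and read as pairs of 75 bases. Amplification can raise the spread between libraries. Build GRCm38 and the tools kallisto, Bowtie2, Trimmomatic and DESeq2 are named, with no version, in the submitters' processing notes. The deposited values are estimated counts per gene and library, beside the authors' log2 fold changes with SE, Wald statistic (a score), p-values and adjusted p-values. Its mean signal per gene equals the rounded counts divided by 1 factor per library (deposited mean, 0 genes off by a relative 1e-06), so the estimated counts are not normalized between libraries. Dll4, Hes5, Hey2 and Heyl are not analysed here.

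Counts were rounded and tested with edgeR 4.0.16 in R 4.3.3 (quasi-likelihood, robust, TMM, filterByExpr, group as the only term, adjusted p under 0.05). SE and 95% intervals were derived from its F statistic and degrees of freedom. CPM use rounded counts and TMM factors, and log2 CPM a prior count of 2. Exon lengths are unions of protein-coding transcripts in GENCODE vM21 basic. DESeq2 1.42.0 was an alternative, and the test was tried on simulated counts. Figures were drawn with matplotlib 3.10.9. Floors of 3 counts cover counting error only, as reads carried no molecular identifiers. Per the labels' protocols, both fractions of a replicate were sorted from 1 pool of mice, so the numbers pair the samples. Correlations of their deviations from group means were 0.161, −0.121 and −0.131 in replicates 1, 2 and 3, so the pairing rests on the labels. Named beside the 9 genes were the 2 pathway genes of highest mean CPM in each role and any with an unadjusted p under 0.05, of which 1 is not reported here. Members, lists and tests were chosen with earlier results of these data known.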

Additional observations from a re-analysis of the deposited data

How the results depend on the processing

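The count of 0 called among the 9 Notch genes and among the pathway list held in all 17 alternatives run with edgeR or DESeq2. Over all genes the count of 0 held in the 15 alternatives with edgeR, while DESeq2 called 60 genes, and 153 with the replicate block; the cause was not tested. edgeR with the replicate block also gave 0 calls, and 209 genes against 394 had an unadjusted p under 0.05. The block changed no call among the named genes, although it moved log2 fold changes, for example that of Hes1 from −0.18 to −0.82, of Notch1 from −0.93 to −1.21, of Notch2 from 0.47 to 0.28, of Tcf7 from −0.14 to −0.69 and of Dll1 from −0.23 to −0.85. The block moved the median of all genes by −0.21 and scaling by library totals moved it by −0.16. Some log2 fold changes changed sign with the setting, Notch4 from 1.00; the cause was not tested. With DESeq2, Maml1, Ep300 and Gata3 stood at 0.039, 0.026 and 0.0498 on the log2 scale, and with its size factors in edgeR at 0.039, 0.026 and 0.0498. With the replicate block, Adam17, Notch4 and Aak1 stood at −0.077, −1.95 and −0.088, and with the block in DESeq2 at −0.019, −1.99 and −0.0296. With library totals only, Adam17 and Aak1 stood at −0.10 and −0.22. Leaving out a library or a replicate of both groups gave log2 fold changes of −0.54 to 0.31 for Aak1, −0.23 to 0.47 for Adam17, −0.074 to 0.54 for Crebbp, −0.81 to 0.70 for Dll1, −0.38 to 2.74 for Dtx1, −0.33 to 0.25 for Ep300, −0.25 to 0.78 for Furin, −0.70 to 0.61 for Gata3, −1.60 to 0.44 for Hes1, −0.32 to 0.29 for Maml1, −0.55 to 0.30 for Mfng, −0.61 to 0.32 for Ncor1, −0.25 to 0.89 for Notch2, −4.10 to 2.50 for Notch4, −1.39 to 0.46 for Tcf7. None of the 9 genes passed under any of these. With edgeR's common biological coefficient of variation of 0.922, differences of the sizes measured for the 7 tested genes did not pass. Notch3 and Nrarp were left out of the main test by its filter on low counts. Without that filter edgeR tested both, with adjusted p = 0.916 for Notch3 and 0.998 for Nrarp.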

Other observations

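Spread within the groups was larger in GFP+ than in GFP− ILCPs for 6 of the 7 Notch genes tested, Dtx1 being the exception. This was common in these libraries, as 73.7% of 12183 genes had the larger coefficient of variation in GFP+. Its median over the genes tested was 77.7% in GFP+ and 48.4% in GFP− ILCPs. Notch2, Rbpj and Hes1 had coefficients of 8.43%, 5.15% and 14.9% in GFP− ILCPs and of 64.3%, 32.2% and 107% in GFP+ ILCPs. Adam10 and Maml1 differed less, at 19.2% and 31.5% in GFP− and 32.8% and 38.8% in GFP+ ILCPs.

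The CD25 gene Il2ra, which Notch is known to raise in T cell progenitors and whose protein was sorted against, had its highest value in GFP+ replicate 3, as Notch2 did. It was chosen after its values were seen, and measured 151, 395 and 2012 CPM in the GFP+ fractions of pools 1, 2 and 3, beside 176, 323 and 339 CPM in their GFP− fractions. Ptcra, a T cell target of Notch that was also chosen after its values were seen, stood at 3.80, 1.82 and 7.31 CPM against 2.38, 0.826 and 1.24 CPM. Neither passed edgeR's test (adjusted p = 0.998 for each).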
